A study of Mus musculus with 6 samples.

Results

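Matrix metalloproteinases (MMPs), the ADAMTS proteases (a disintegrin and metalloproteinase with thrombospondin motifs) with their ADAMTS-like relatives, and the tissue inhibitors of metalloproteinases (TIMPs) were compared between brown and white fat. Members were all probe sets (groups of short probes that read one transcript) whose only gene symbol was Mmp, Timp, Adamts or Adamtsl followed by a number. There were 78 such probe sets for 42 genes, of 18193 genes with a symbol of their own on the array: 18 MMPs, 15 ADAMTS, 5 ADAMTS-like genes and 4 TIMPs. The tissues were interscapular brown fat and epididymal white fat of 3 untreated male C57BL/6 mice, 10 to 12 weeks old, kept at ambient temperature. Each of the 6 samples had an array of its own, an Affymetrix mouse 430_2 chip, giving 3 arrays per tissue. All brown fat came from between the shoulder blades and all white fat from beside the epididymis, so the type of fat and the depot it came from cannot be told apart. Whole tissue was used, so fewer cells of a type and less RNA per cell cannot be told apart either.

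MMPs and ADAMTS enzymes are zinc proteases that cut the matrix around cells. They are made as inactive precursors, cut open by furin-like convertases, plasmin or other MMPs, and held in check by TIMPs, which plug the active site. ADAMTS-like proteins share the modules of ADAMTS enzymes but lack the protease domain and sit in the matrix. In fat, these enzymes are known for remodelling the collagen shell of the adipocyte as depots grow, and MMP14 is the best known of them as a collagen-cutting enzyme on the cell surface.

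The arrays carried the marker that their labels call for: Ucp1, the uncoupling protein of brown fat, had a geometric mean signal of 12940 on the brown arrays and 14.8 on the white arrays. In the table deposited for the whole series it ran the other way, 47.0 in the columns named for brown and 13240 in those named for white. Each column of that table correlated best with the array of the opposite tissue (r across probe sets of 0.840 to 0.874, against 0.778 to 0.794 with the array it is named for). As its columns are named, 16 of the 17 members that differed here would have the opposite sign. The arrays were used throughout. Present calls, the deposited verdict that a signal exceeds background, covered 35.6% to 37.5% of all probe sets on the brown arrays and 45.2% to 45.8% on the white arrays.

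Of the 42 genes, 21 were tested, because they had a probe set with present calls on 3 or more of the 6 arrays. Of these, 15 were higher in white fat, 2 were higher in brown fat (Adamts18 and Adamtsl3) and 4 did not pass the threshold of an adjusted p of 0.05 in limma (Timp1, Mmp19, Adamts3 and Adamtsl5). The 15 include Adamts9, whose probe sets were called in opposite directions. Over all 10264 genes tested, 32.7% were higher in white fat and 28.2% higher in brown fat, 61% in all. The 17 members that passed are also those whose brown and white arrays did not overlap, which held for 67.3% of all genes tested. By probe set, 26 of the 34 member probe sets tested were higher in white fat, 3 were higher in brown fat and 5 did not pass, against 29.9% and 24.6% of all 19819 probe sets tested. The median log2 difference, brown minus white, was -1.15 over the tested members and -0.04 over all genes tested. A filter on present calls favours a difference in genes that passed it through 1 tissue alone. Among the members, 4 of the 15 higher in white fat (Mmp9, Mmp12, Mmp23 and Adamts10) had no present call in brown fat for the probe set used, and Adamts18 had none in white fat. Some other tested probe sets, of Timp2, Timp3 and Timp4, also had no present call in brown fat. Among the 11 members whose probe set was present on all 6 arrays, 9 were higher in white fat, 1 was higher in brown fat and 1 did not pass the threshold, where 31.2% of the 7292 such genes were higher in white fat and 33.4% in brown fat. A difference of at least 2-fold was seen for 12 members in white fat and 1 in brown fat, against 14.4% and 10.9% of all genes tested.

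By family, all 4 TIMPs, 8 of 15 ADAMTS genes, 3 of 5 ADAMTS-like genes and 6 of 18 MMPs were tested, where 56.4% of all genes with a symbol of their own were. On each array, 22 to 24 member probe sets were present in brown fat (28.2% to 30.8% of the members) and 35 to 41 in white fat (44.9% to 52.6%). The shares over all probe sets, given above, did not overlap between the tissues either. Across all arrays, 29 of the 78 member probe sets were never called present. The 11 genes with no present call on any array were Mmp1a, Mmp1b, Mmp3, Mmp10, Mmp20, Adamts6, Adamts8, Adamts16, Adamts19, Adamts20 and Adamtsl2. Another 10 genes had 1 or 2 present calls. Of those, Adamts4, Adamts7, Adamtsl1, Mmp7, Mmp11, Mmp13 and Mmp17 had them on white arrays and Mmp8, Mmp16 and Mmp24 on brown arrays. No present call means that the signal was not told from background, not that the transcript is absent.

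**Figure D1:**
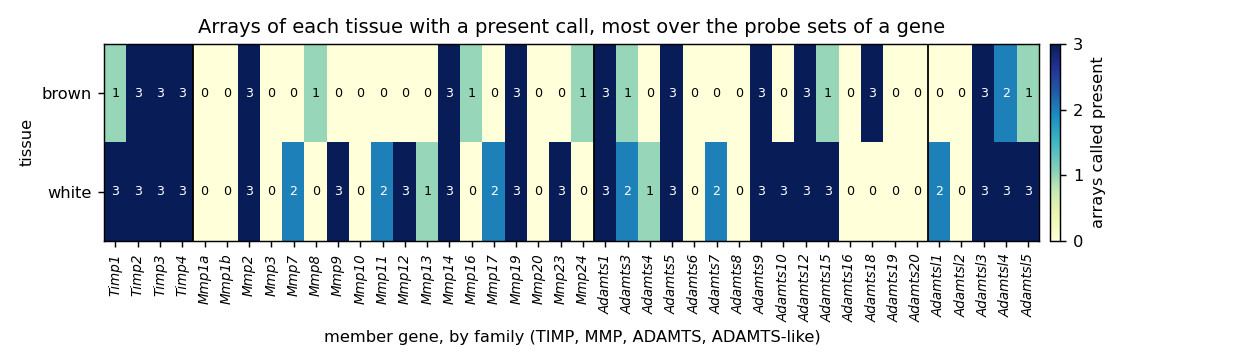
Number of arrays (of 3 per tissue) on which each member gene was called present, taking in each tissue the probe set with most present calls; columns are genes grouped by family with vertical lines between families. The TIMPs are present on at least 1 array of both tissues, while 5 of the 18 MMP genes and 5 of the 15 ADAMTS genes have 0 in both rows.

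The MMPs never called present are neighbours in the genome. In the order of genes in the RefSeq table, Mmp13, Mmp12, Mmp1b, Mmp3, Mmp1a, Mmp10, Mmp8, Mmp27, Mmp20 and Mmp7 lie in a row on chromosome 9, a cluster that holds the secreted collagenases, stromelysins, matrilysin and macrophage elastase. Of its 9 members here (Mmp27 is no member), only Mmp12 was tested and 5 were never present, which are all the MMPs with no present call. Of the other 33 members, 20 were tested and 6 were never present. Promoter windows from RefSeq (build GRCm38.p6, 250 bases before to 50 bases after an annotated start) were on hand for 27 of the 42 genes. They were searched on both strands for TGANTCA, the site of AP-1, a transcription factor that responds to growth factors and inflammatory signals, and for TATAAA, the TATA box. The AP-1 letters were in the windows of 8 of the 9 cluster genes, all but Mmp8, and of 0 of the 18 other members with a window. TATAAA was in the windows of all 9 cluster genes and of 2 of the 18 others, Adamts1 and Adamtsl2. Among all 32851 windows of this length in the table, 7.8% held the AP-1 letters, 13.6% held TATAAA and 1.5% held both. Neighbouring copies share ancestry and are not independent examples, and a match is a description of letters, not a site shown to be bound.

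The 150 bases before the start of 4 cluster genes, 2 of them with present calls in white fat (Mmp12 and Mmp7) and 2 never present (Mmp3 and Mmp10), are shown with those of 3 members detected on all 6 arrays (Mmp14, Timp2 and Timp4). Capitals mark the AP-1 letters and TATAAA. Each is written 5′ to 3′ on the strand of its gene.
Mmp12, chr9:7347224-7347373, plus strand: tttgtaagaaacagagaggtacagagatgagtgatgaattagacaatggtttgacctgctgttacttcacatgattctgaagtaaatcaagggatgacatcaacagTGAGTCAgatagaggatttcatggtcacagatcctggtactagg
Mmp7, chr9:7691940-7692089, plus strand: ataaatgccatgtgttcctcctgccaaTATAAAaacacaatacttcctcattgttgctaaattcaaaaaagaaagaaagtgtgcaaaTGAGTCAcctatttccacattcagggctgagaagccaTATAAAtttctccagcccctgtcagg
Mmp3, chr9:7445672-7445821, plus strand: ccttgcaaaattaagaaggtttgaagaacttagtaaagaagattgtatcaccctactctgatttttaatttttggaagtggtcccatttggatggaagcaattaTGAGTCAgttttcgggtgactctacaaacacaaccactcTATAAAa
Mmp10, chr9:7502192-7502341, plus strand: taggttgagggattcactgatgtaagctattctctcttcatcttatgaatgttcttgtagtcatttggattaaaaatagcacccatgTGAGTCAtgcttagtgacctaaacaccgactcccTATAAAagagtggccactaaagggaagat
Mmp14, chr14:54431448-54431597, plus strand: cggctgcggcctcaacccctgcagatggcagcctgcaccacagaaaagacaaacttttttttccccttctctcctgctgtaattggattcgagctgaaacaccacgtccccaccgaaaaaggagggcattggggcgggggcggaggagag
Timp2, chr11:118355412-118355561, minus strand: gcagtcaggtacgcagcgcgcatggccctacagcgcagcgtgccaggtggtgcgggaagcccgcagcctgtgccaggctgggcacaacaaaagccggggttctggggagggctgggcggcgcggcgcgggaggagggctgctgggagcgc
Timp4, chr6:115252206-115252355, minus strand: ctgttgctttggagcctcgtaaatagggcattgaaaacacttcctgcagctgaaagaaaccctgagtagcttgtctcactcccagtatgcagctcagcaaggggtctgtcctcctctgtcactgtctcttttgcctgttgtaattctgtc

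The AP-1 letters begin 44 bases before the start in Mmp12, 63 in Mmp7, 46 in Mmp3 and 63 in Mmp10. TATAAA begins 26 and 123 bases before the start in Mmp7, 7 in Mmp3 and 29 in Mmp10, and in Mmp12 it begins just after the annotated start. Mmp12 and Mmp7 each have a second annotated start whose window holds neither motif. Among those shown, cluster genes with and without present calls carry the AP-1 letters. No data here bear on binding at these windows.

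Of the inhibitors, 3 of the 4 TIMPs were higher in white fat and Timp1 did not pass the threshold. Over all genes tested, 32.7% were higher in white fat and 28.2% in brown fat. Timp2, an inhibitor that also helps MMP14 activate MMP2, had quantile-normalised signals of 519, 512 and 422 on the brown arrays and 4000, 3627 and 3830 on the white arrays. Every white array was above every brown array, and the white signal was 7.92-fold that of brown (log2 difference -2.98 ± 0.09 SE, adjusted p = 3.11e-09). Of the 6 probe sets for Timp2, 5 were tested and all 5 were higher in white fat, with log2 differences from -3.02 to -2.73. Those at -2.80 and -2.73 had no present call in brown fat and passed the filter through white fat alone. The probe set not tested was never present.

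Timp4, a TIMP found mainly in fat, heart and muscle, had signals of 487, 538 and 519 on the brown arrays and 2829, 2935 and 3153 on the white arrays. The tissues did not overlap, and white was 5.77-fold brown (log2 difference -2.53 ± 0.07 SE, adjusted p = 2.22e-09). A second Timp4 probe set was absent on every brown array and at least 3.57-fold higher in white fat. Timp4 lies within Syn2 in the RefSeq gene table, next to Pparg, and Timp1 and Timp3 likewise lie within Syn1 and Syn3.

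Timp3, which binds to the matrix and inhibits ADAM and ADAMTS enzymes as well as MMPs, had signals of 854, 688 and 862 on the brown arrays and 1766, 1813 and 1691 on the white arrays. The groups were again apart, at 2.20-fold (log2 difference -1.14 ± 0.09 SE, adjusted p = 2.90e-06). Of its 4 probe sets, 3 were higher in white fat. Among those 3, the probe set with a log2 difference of -1.92 had no present call in brown fat. The last one, with signals of 278, 136 and 249 in brown and 372, 324 and 253 in white, overlapped between tissues and did not pass the threshold (log2 difference -0.56 ± 0.25 SE, adjusted p = 0.084 over probe sets).

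Timp1, the inhibitor best known for its induction in inflammation and obesity, had signals of 87.4, 71.8 and 58.4 on the brown arrays and 68.1, 84.8 and 82.6 on the white arrays. The tissues overlapped, with a log2 difference of -0.13 ± 0.21 SE (adjusted p = 0.622), and 1 brown array against all 3 white arrays was called present. With the arrays left at their deposited scale, or scaled on the spike-in controls, Timp1 was higher in white fat (log2 difference -0.63 with adjusted p = 0.0175, and -0.62 with adjusted p = 0.0314).

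**Figure D2:**
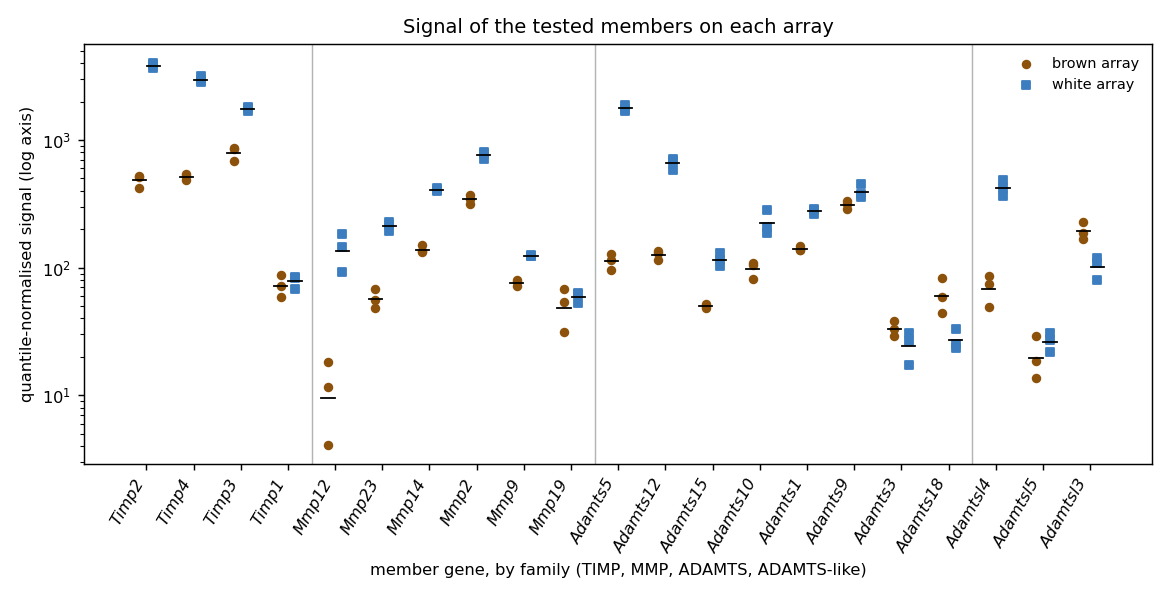
Quantile-normalised signal (log axis) of the 21 tested members on each array, brown arrays as circles and white arrays as squares, with a black line at the geometric mean of each tissue; genes are grouped by family and ordered by their difference. Timp2 and Timp4 lie at 422 to 538 on the brown arrays and at 2829 to 4000 on the white arrays, while Timp1 overlaps between tissues; heights of different genes cannot be compared, since each probe set has its own response.

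Among the MMPs, 5 of the 6 tested genes were higher in white fat and none was higher in brown fat. The shares of all genes tested were 32.7% and 28.2%. Mmp14, the membrane-bound collagenase that activates MMP2, had signals of 131, 135 and 150 on the brown arrays and 399, 405 and 418 on the white arrays. The white arrays lay within a narrow range well above all brown arrays, at 2.94-fold (log2 difference -1.55 ± 0.11 SE, adjusted p = 9.16e-07). Mmp2, the gelatinase A that MMP14 and TIMP2 together activate, had signals of 314, 369 and 348 in brown and 711, 780 and 800 in white. It was 2.23-fold higher in white fat (log2 difference -1.15 ± 0.09 SE, adjusted p = 3.03e-06), and its second probe set was also higher there, by a smaller amount (log2 difference -0.76). The enzyme, its activator and the inhibitor that bridges them were thus all higher in white fat.

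Mmp12, the elastase of macrophages, had signals of 4.11, 18.3 and 11.6 on the brown arrays, all called absent, and 92.6, 184 and 146 on the white arrays, all called present. White was at least 12.0-fold brown (log2 difference -3.83 ± 0.52 SE, adjusted p = 0.000121). Without brown replicate 1, the lowest array, the log2 difference was -3.22 and the bound 9.34-fold. Relative to their mean signal, the white arrays spread more for Mmp12 than for any of the TIMPs named above. Macrophage markers were higher on the same arrays: 10 of 10 (Cd68, Adgre1, Csf1r, Cd14, C1qa, C1qb, C1qc, Lyz2, Mrc1 and Cd163) were higher in white fat, against 32.7% of all genes tested. Their summed signal was 2945 to 3455 on the brown arrays and 19080 to 19910 on the white arrays. All 10 also had signal on the brown arrays at a lower level, and their part in the Mmp12 difference was not tested.

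Mmp23, an MMP anchored at the cell surface and active without a cysteine switch, had signals of 67.8, 56.3 and 48.1 on the brown arrays and 194, 228 and 214 on the white arrays. It was called absent on every brown array and was at least 3.72-fold higher in white fat (log2 difference -1.90 ± 0.17 SE, adjusted p = 6.38e-06). Mmp9, the gelatinase B of neutrophils and macrophages, is named here after its values were seen, since it changed by less than 2-fold. Its signals were 71.2, 79.9 and 77.6 on the brown arrays, all absent, and 124, 123 and 127 on the white arrays, at least 1.64-fold higher (adjusted p = 0.00219). The second Mmp9 probe set had no present call, with signals of 3.43, 2.23 and 5.05 in brown and 98.4, 79.6 and 118 in white, so it gives no fold.

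Mmp19, a secreted MMP that cuts basement membrane proteins, was the only MMP tested that did not pass the threshold. Its signals of 53.7, 31.1 and 68.6 in brown and 63.0, 53.3 and 62.5 in white overlapped (log2 difference -0.29 ± 0.30 SE, adjusted p = 0.427). On the deposited scale and on the spike-in scale it was higher in white fat (log2 difference -0.77 with adjusted p = 0.0418, and -0.76 with adjusted p = 0.0398). Mmp7, the matrilysin of glandular epithelium, had too few present calls to be tested, with signals of 23.7, 49.5 and 44.4 on the brown arrays and 80.2, 272 and 252 on the white arrays. White replicates 2 and 3 were called present, and white replicate 1 was lower and called absent.

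Among the ADAMTS enzymes, 6 of the 8 tested were higher in white fat, against 32.7% of all genes tested. The group that cuts proteoglycans (Adamts1, Adamts4, Adamts5, Adamts8, Adamts9, Adamts15 and Adamts20) supplied 4 of the 6. Both counts include Adamts9, whose probe sets were called in opposite directions. Adamts5, a main aggrecanase of cartilage that also cuts versican, had signals of 129, 115 and 95.7 on the brown arrays and 1889, 1694 and 1740 on the white arrays. White was 15.8-fold brown with no overlap (log2 difference -3.98 ± 0.12 SE, adjusted p = 3.05e-09), the largest fold among members present on all 6 arrays. Its 3 tested probe sets were all higher in white fat, with log2 differences of -3.98, -3.78 and -3.41. In the RefSeq gene order Adamts5 lies next to Adamts1, another versican-cutting enzyme, named after its values were seen. Adamts1 differed less, with signals of 137, 137 and 148 in brown and 290, 283 and 264 in white (log2 difference -0.99 ± 0.11 SE, adjusted p = 3.71e-05).

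Adamts15, a versican-cutting enzyme, had signals of 48.3, 52.1 and 49.9 on the brown arrays and 103, 129 and 115 on the white arrays, 2.30-fold higher in white (log2 difference -1.20 ± 0.18 SE, adjusted p = 0.000214). Its neighbour in the gene order, Adamts8, was never called present. Adamts9, another proteoglycan-cutting ADAMTS, also named after its values were seen, was read in opposite directions by its 3 probe sets. The brightest gave 318, 330 and 289 in brown and 448, 380 and 356 in white (log2 difference -0.33 ± 0.11 SE, adjusted p = 0.0282). A second gave 51.1, 38.2 and 46.9 against 89.8, 74.7 and 77.2, also higher in white (log2 difference -0.83 ± 0.21 SE). The third gave 196, 228 and 176 against 124, 95.6 and 130, higher in brown (log2 difference 0.78 ± 0.16 SE, adjusted p = 0.00257 over probe sets). The direction of Adamts9 as a gene is therefore unsettled, and its call did not hold when its probe sets were averaged (log2 difference -0.13, adjusted p = 0.383) or when replicate 1 or 3 of brown fat, or replicate 1 or 2 of white fat, was left out (adjusted p from 0.0513 to 0.108).

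**Figure D3:**
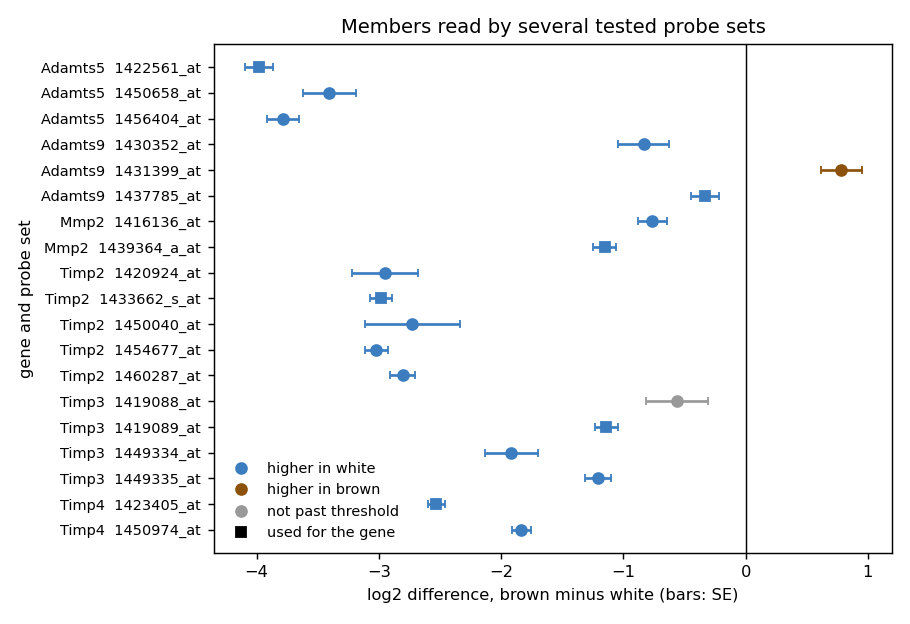
Log2 difference, brown minus white, with its SE for each tested probe set of the 6 members read by more than 1 tested probe set; colours give the call, and squares mark the probe set used for the gene. The 5 Timp2 probe sets lie between -3.02 and -2.73, whereas the 3 Adamts9 probe sets lie on both sides of 0.

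Adamts12, which cuts cartilage oligomeric matrix protein, had signals of 134, 114 and 130 on the brown arrays and 585, 689 and 705 on the white arrays. White was 5.22-fold brown, and all arrays were called present (log2 difference -2.38 ± 0.12 SE, adjusted p = 8.44e-08). Adamts10, which binds fibrillin in microfibrils, was absent on the brown arrays at 110, 105 and 80.9 and present on the white arrays at 285, 186 and 207. It was at least 2.27-fold higher in white fat (log2 difference -1.19 ± 0.19 SE, adjusted p = 0.000417).

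Adamts18, an ADAMTS with few known substrates, went the other way. Its signals were 58.6, 83.8 and 44.4 on the brown arrays, all present, and 25.4, 33.2 and 23.6 on the white arrays, all absent. Brown was at least 2.22-fold white (log2 difference 1.15 ± 0.31 SE, adjusted p = 0.00841), and the other 2 Adamts18 probe sets were never present. The bound moved when 1 brown array was left out: it was 1.88-fold without brown replicate 2 and 2.59-fold without brown replicate 3. On the deposited scale and the spike-in scale the Adamts18 difference kept its sign without passing the threshold (log2 difference 0.69 with adjusted p = 0.0636, and 0.70 with adjusted p = 0.0772). Adamts3, which trims procollagen and activates VEGF-C, had signals of 29.2, 33.3 and 38.2 in brown and 31.1, 17.2 and 26.6 in white, which overlapped (log2 difference 0.46 ± 0.34 SE, adjusted p = 0.266).

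The 3 tested ADAMTS-like genes split 3 ways. Adamtsl4, which binds fibrillin-1 microfibrils, had signals of 85.9, 74.5 and 49.6 on the brown arrays and 424, 361 and 484 on the white arrays. White was 6.16-fold brown with no overlap (log2 difference -2.62 ± 0.21 SE, adjusted p = 2.38e-06). Adamtsl3, named after its values were seen, had signals of 188, 167 and 229 in brown and 109, 119 and 79.6 in white, with all arrays present. It was 1.90-fold higher in brown fat (log2 difference 0.93 ± 0.19 SE, adjusted p = 0.00183), but not past the threshold on the deposited or the spike-in scale (log2 difference 0.39 with adjusted p = 0.0943, and 0.40 with adjusted p = 0.123). Adamtsl5 had signals of 18.6, 13.7 and 29.1 in brown and 31.1, 21.7 and 27.0 in white, which overlapped (log2 difference -0.43 ± 0.41 SE, adjusted p = 0.382). Adamtsl1 was not tested, having 2 present calls at most for any probe set. Its 2 probe sets with such calls were absent on the brown arrays, at 1.31, 17.2 and 35.4 for one and 6.40, 8.25 and 11.1 for the other. On the white arrays they gave 77.2, 43.7 and 59.1 and 57.9, 76.0 and 71.8.

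**Figure D4:**
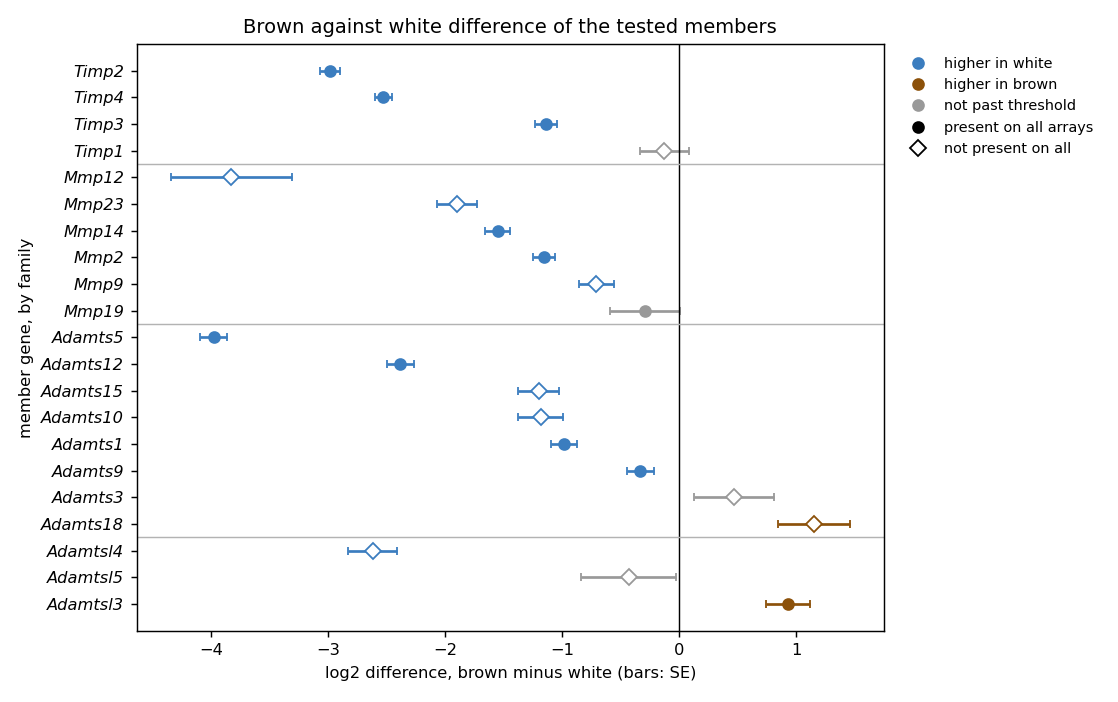
Log2 difference, brown minus white, with its SE for the 21 tested members, grouped by family; colour gives the call, filled circles are genes present on all 6 arrays and open diamonds are not. Of the 21 genes, 15 are called to the left of 0 (white) and 2, Adamts18 and Adamtsl3, to the right (brown).

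The partners of these enzymes were described from lists of related genes. From a list of matrix substrates of the MMP and ADAMTS families at large, 11 of 12 tested genes were higher in white fat and none in brown fat. The median log2 difference of the 12 was -1.75. Over all genes tested, the shares were 32.7% and 28.2% and the median was -0.04. Of the 12, Fn1, Ltbp1 and Acan had no present call in brown fat and passed the filter through white fat alone. Fibronectin (Fn1) had signals of 401, 390 and 382 on the brown arrays, called marginal, absent and absent, and 4629, 4895 and 4573 on the white arrays, all called present (log2 difference -3.59 ± 0.06 SE, adjusted p = 2.15e-10). Averaged over its probe sets, the Fn1 difference was smaller (log2 difference -2.555, adjusted p = 2.91e-07 in limma). Versican (Vcan), a substrate of ADAMTS1, ADAMTS5, ADAMTS9 and ADAMTS15, had signals of 34.2, 48.7 and 34.6 against 196, 168 and 162 (log2 difference -2.18 ± 0.20 SE, adjusted p = 6.93e-06). Ltbp1, which tethers latent TGF-beta to the matrix, had signals of 5.41, 33.9 and 39.6 on the brown arrays, all called absent, and 175, 216 and 214 on the white arrays. White was at least 9.61-fold brown, and at least 5.48-fold without brown replicate 1. Enzymes, inhibitors and listed substrates lay mostly in the same direction on these arrays. Since the lists were drawn up with earlier results of these data known, this is a description only. The 12 tested substrates include Acan, which did not pass the threshold (log2 difference 0.07 ± 0.31 SE).

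Among the other regulators and activators, 5 of 8 tested were higher in white fat and 2 in brown fat, to be read against the same 32.7% and 28.2%, and Spock2 passed the filter through white fat alone. Reck, a membrane-anchored MMP inhibitor, had signals of 55.3, 53.4 and 44.5 on the brown arrays and 235, 233 and 224 on the white arrays (log2 difference -2.18 ± 0.15 SE, adjusted p = 9.93e-07). Lrp1, the receptor that takes up MMPs, ADAMTS5 and TIMP3, had signals of 854, 893 and 809 in brown and 2237, 2210 and 2456 in white (log2 difference -1.43 ± 0.07 SE, adjusted p = 7.40e-08). Spock2, a testican, had signals of 21.6, 99.9 and 4.58 on the brown arrays, all called absent, and 339, 376 and 394 on the white arrays. White was at least 13.7-fold brown, a bound that moved when 1 brown array was left out: it was 7.95-fold without brown replicate 3 and 26.5-fold without brown replicate 2. Bsg (basigin), which induces MMPs in neighbouring cells, was higher in brown fat, with signals of 2137, 2114 and 2448 against 1425, 1509 and 1476 (log2 difference 0.60 ± 0.07 SE, adjusted p = 4.23e-05). Furin, the convertase that activates MMP14 and many ADAMTS enzymes, had signals of 402, 512 and 460 in brown and 355, 355 and 361 in white (log2 difference 0.35 ± 0.11 SE, adjusted p = 0.0152). The Furin difference turned to -0.10 on the deposited scale and -0.08 on the spike-in scale, neither past the threshold.

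Of the listed ADAM genes, membrane-bound cousins of the ADAMTS enzymes, 5 of 9 tested were higher in white fat and 1 in brown fat. These counts are to be read against those same shares of all genes. Of the 5, 2 (Adam8 and Adam15) had no present call in brown fat for the probe set used. Adam10 had signals of 350, 331 and 358 on the brown arrays and 824, 835 and 818 on the white arrays (log2 difference -1.25 ± 0.08 SE, adjusted p = 4.52e-07). The Adam15 probe set used was at least 2.55-fold higher in white fat. When only probe sets present on all 6 arrays were tested, Adam15 differed less (log2 difference -0.90, adjusted p = 0.00144 in limma). Averaged over its probe sets, its log2 difference was -1.44. Adam23 was higher in white fat by a log2 difference of -1.15 ± 0.17 SE. Adam12 was the one higher in brown fat, with signals of 495, 488 and 355 against 221, 167 and 195 (log2 difference 1.20 ± 0.16 SE, adjusted p = 9.76e-05). Of 6 genes of plasminogen activation on the array, 4 were never present and 2 were higher in white fat. The tissue plasminogen activator Plat had signals of 136, 138 and 118 in brown and 404, 365 and 440 in white (log2 difference -1.62 ± 0.12 SE, adjusted p = 1.81e-06). The urokinase receptor Plaur passed more narrowly (log2 difference -0.60 ± 0.21 SE, adjusted p = 0.0327) and was past the threshold in only some of the fits without 1 array (adjusted p from 0.0164 to 0.127).

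Markers of some cell types were higher on the white arrays, beside the members, and those of others were not. The counts are to be read against 32.7% of all genes tested higher in white fat and 28.2% higher in brown fat. Brown adipocyte markers were higher in brown fat for 6 of 6 genes and white adipocyte markers in white fat for 5 of 5. Fibroblast and progenitor markers were higher in white fat for 7 of 8 tested genes, with summed signals of 3994 to 4401 on the brown arrays and 17690 to 18210 on the white arrays. Mesothelial markers were higher there for 9 of 9, with sums of 302 to 346 against 3778 to 3904. Among these 9, only Wt1 and Lrrn4 had a present call in brown fat, so the others passed the filter through white fat alone. Endothelial markers, by contrast, were higher in white fat for 2 of 6 and did not pass the threshold for 4, with sums of 2477 to 2593 against 2853 to 3073. Smooth muscle and pericyte markers split, with 3 of 6 tested higher in white fat and 3 in brown fat. Of 3 mast cell markers tested, none passed the threshold, and of 2 lymphocyte markers tested, 1 (Ighm) was higher in white fat. Markers shared by both kinds of adipocyte were higher in white fat for 4 of 6 and not past the threshold for 2, with sums of 41710 to 42960 against 53060 to 54140. Of the 6 neutrophil markers on the array 3 were tested, 1 higher in brown fat and 2 not past the threshold, with sums of 309 to 407 against 250 to 311. Of the epididymal epithelium list, Lcn5, Adam7 and Gpx5 were never called present, while Rnase10 had 5 present calls and did not pass the threshold (log2 difference -0.25 ± 0.28 SE, adjusted p = 0.456). Outside the mesothelial list, Agt, Pi16, Pecam1, Cma1, Tpsb2, Ms4a1 and Ighm had no present call in brown fat, and Ucp1 and Des had none in white fat. The part of these cell types in the members' differences was not tested.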

How the data were processed

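Total RNA from 3 brown and 3 white fat samples was hybridised to 1 array each, and samples were grouped by their labels. The deposited files, per the file headers, hold for every probe set a linear signal intensity, its call (present, marginal or absent) and a p-value for detection. Not given in the sources used here are the authors' software, scaling and genome build. Precision is limited by the number of arrays. The design text calls the samples biological replicates, without saying whether replicate numbers mark a mouse.

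Control probe sets (64) were removed, leaving 45037. The 1 signal of 0 was set to 0.1, and log2 signals were quantile-normalised. Probe sets present on at least 3 of 6 arrays (19819) were compared by tissue in limma (version 3.58.1, under R 4.3.3), by lmFit and trended eBayes, p-values adjusted by Benjamini-Hochberg and called under 0.05. Each gene took its probe set with the highest mean log2 signal (10264 genes, adjusted over these). Fold values are ratios of geometric means. "At least" marks a tissue with 3 absent calls, for which an array's signal was raised to the lowest one called present there if it lay below it. Symbols came from the platform annotation; all 42 members were found in the RefSeq gene table by gene identifier, and 0 symbols changed.

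The members and lists were chosen with earlier results of these data known. Genes named are all TIMPs, other members past the threshold by at least 2-fold with tissues not overlapping, the brightest uncalled tested member of each other family, and up to 3 genes of each related list in its main direction and 2 in the other. Alternatives were other scalings, 64 units added, other filters, the mean over probe sets, a replicate block and leaving out each array. Another was removal of probe sets whose name marks probes shared by several transcripts (such as _a_at, _s_at and _x_at).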

Additional observations from a re-analysis of the deposited data

How the results depend on the processing

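With all other choices kept, the count of members higher in white fat was 15 and that higher in brown fat 2. When only probe sets present on all 6 arrays were tested, these became 9 and 1, because fewer genes were tested. With no detection filter, 4 members were higher in brown fat (Adamts8 and Mmp3 were added, although absent on every array), and Adamtsl1 and Mmp7 were added to white, while 19.2% of all genes were higher in white fat and 18.6% in brown fat, with a median log2 difference of 0.06. On the deposited scale and on the spike-in scale, 0 members were higher in brown fat by limma. Those scalings moved the median log2 difference of all genes tested from -0.04 to -0.50 and -0.48, and 56.1% and 50.9% of genes were then higher in white fat, against 15% and 13.4% in brown fat. The median difference of the tested members was then -1.58 and -1.57, and it was -0.82 with 64 units added and -0.42 over all 42 members with no filter. Without 1 array at a time, the count higher in white fat was 14 to 15, the count higher in brown fat 2 to 2, and the members' median -1.21 to -1.12. Signs that turned were those of genes that were not called, or of Furin: Mmp19 ranged from -0.54 to 0.031 and Timp1 from -0.27 to 0.020 when 1 array was left out, turning without brown replicate 2 and brown replicate 3, and Furin was -0.096 on the deposited scale and -0.083 on the spike-in scale. The causes were not tested. Of 508 alternative values for 35 named genes, 486 kept their direction and side of the threshold, 14 lost the call, 4 gained it and 4 changed sign.

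No pairing by replicate number was seen in the signals: deviations from the tissue means correlated at 0.02, -0.01 and -0.05 between arrays of the same number. Between arrays of different numbers they correlated at -0.05 to 0.07. Such values cannot settle whether samples of the same number came from the same mouse. With the replicate number as a block, all 17 called members kept their call. Present calls limit depth here: 21 of 42 members were not tested, and a fold against absent arrays is a bound.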

Other observations

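Mmp7 differed between the white arrays, with a signal of 80.2 on replicate 1 and of 272 and 252 on replicates 2 and 3. Of the 9 mesothelial markers, 5 were also lowest on white replicate 1 among the white arrays. Krt8, an epithelial keratin, had signals of 107, 240 and 241 on the white arrays, and Krt18, its partner, had 62.8, 129 and 104. The other 4 (Msln, Upk3b, Upk1b and Lrrn4) were highest on white replicate 1, with 106, 83.1 and 102 for Msln, 1155, 1003 and 942 for Upk3b, 270, 237 and 239 for Upk1b and 706, 621 and 501 for Lrrn4. The list thus ran both ways. These genes were chosen after their values were seen, and no test was made over 3 arrays.

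Mmp3, a stromelysin, and Adamts8, the neighbour of Adamts15, had higher signals on the brown arrays while called absent on all 6. Adamts8 gave 101, 121 and 116 in brown and 41.3, 55.9 and 33.3 in white, and Mmp3 gave 65.4, 48.9 and 56.1 in brown and 33.5, 33.1 and 15.9 in white. Neither pair of groups overlapped, but signals called absent are not told from background, so no fold is given.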
